A study of Mus musculus with 12 samples.

Results

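The glucose transporter and hexokinase genes examined here are 9 listed mouse genes. They are 6 members of the Slc2 family (Slc2a1, Slc2a2, Slc2a3, Slc2a4, Slc2a5 and Slc2a8) and the hexokinase genes Hk1, Hk2 and Hk3. The rule names them and uses no measured value, although they were listed with earlier results of these data known, and all 9 were found among the 21938 protein-coding genes that GENCODE release M21 places on chromosomes 1 to 19, X and Y of GRCm38. A peak was assigned to a gene when it shared at least 1 bp with the gene body or lay within 3 kb of any annotated start site. The 9 genes have 68 annotated transcripts, and their bodies run from 5.65 kb at Slc2a4 to 111 kb at Hk1. The data are chromatin immunoprecipitation followed by sequencing (ChIP-seq) of the lysine acetyltransferase MOF, which acts on histone H4, in visceral white adipose tissue (WAT). The tissue came from C57BL/6 mice that were 8 weeks old and kept on a standard diet. Mof+/+ animals carry both copies of the gene and Mof+/- littermates carry 1 copy in the whole animal, so the tissue of a Mof+/- mouse is not altered in adipocytes alone. The labels describe 12 libraries in 6 groups of 2, with MOF, histone H3 and input for each genotype, and 1 list of MOF peaks per genotype was analysed.

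Glucose enters cells down its gradient through transporters of the Slc2 (GLUT) family, and hexokinases then add a phosphate that keeps it inside the cell. In fat and muscle, insulin moves GLUT4 from internal vesicles to the cell surface, while GLUT1 serves basal uptake in many cell types. MOF acetylates histone H4 at active genes, and a MOF peak marks where more immunoprecipitated than input DNA was recovered.

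Of the 9 genes, 5 had at least 1 Mof+/+ peak (Slc2a1, Slc2a3, Slc2a4, Hk1 and Hk2) and 4 had none (Slc2a2, Slc2a5, Slc2a8 and Hk3). The share of 55.6% stands beside 44.5% of all protein-coding genes under the same rule. In the Mof+/- list, 0 of the 9 genes had a peak, beside 1.89% of all protein-coding genes. The 5 genes held 7 Mof+/+ peaks, with 2 each at Slc2a1 and Slc2a3. All 5 had a peak within 1 kb of a start site, which 41% of all protein-coding genes had (42.8% within 3 kb), and in the Mof+/- list 0 of the 9 had one, beside 1.32%. In 5 equal groups of genes by length, 29.5%, 37.7%, 49.7%, 54.6% and 51.3% had a Mof+/+ peak, from the shortest to the longest, and 26.2%, 34.8%, 46.6%, 51.2% and 46.5% had one within 1 kb of a start. Slc2a4 and Slc2a8 are in group 2, Slc2a5 and Hk3 in group 3, Slc2a1, Slc2a2 and Hk2 in group 4, and Slc2a3 and Hk1 in group 5. The lists hold no values for single libraries and give no total of reads, so the variation from mouse to mouse is unknown and no test was made.

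**Figure D1:**
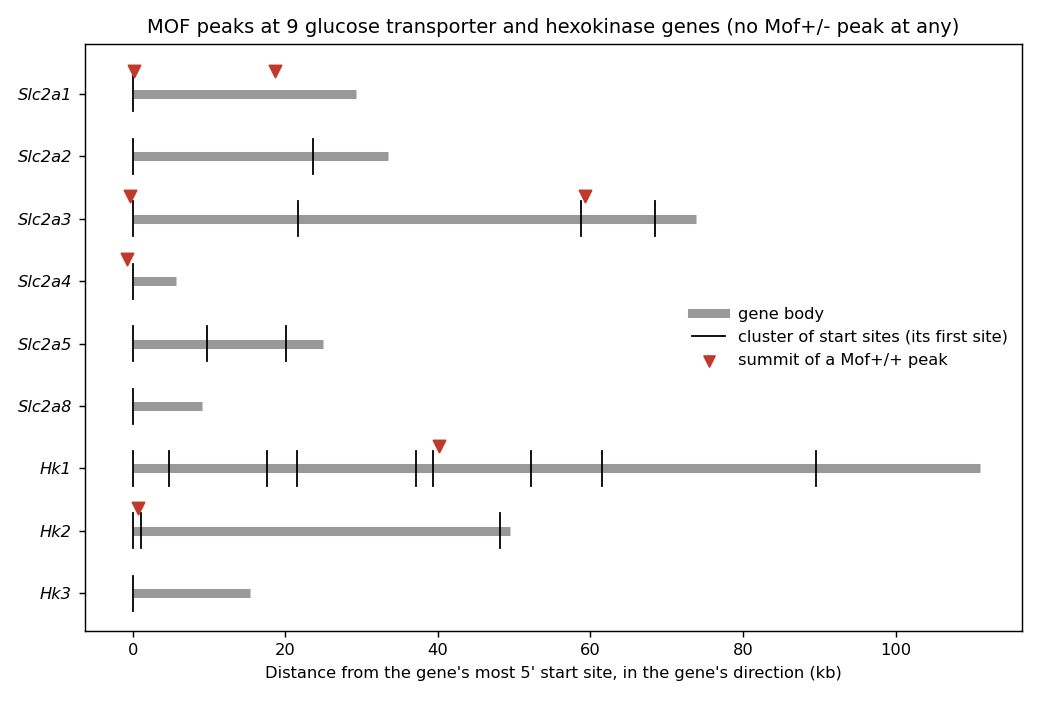
The x axis gives the distance in kb from the most 5′ start site of each gene, in the direction of the gene, and each row is 1 of the 9 genes. Grey bars are gene bodies, black ticks are clusters of start sites and red triangles are the summits of the 7 Mof+/+ peaks, of which 6 lie within 1 kb of a start site and 1 lies in an intron of Slc2a1, 18683 bp from its most 5′ start.

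The sequences below show the bases under the peaks, and the promoters of a gene with a peak and of one without. The Slc2a1 stretch (chr4:119108561-119108710, + strand) and the Slc2a2 stretch (chr3:28697753-28697902, + strand) are the 150 bp that end just before the most 5′ start site of each gene, and they come from the RefSeq promoter table of GRCm38.p6. They are shown because the strongest of the 7 peaks lay over the start of Slc2a1, while Slc2a2 had none. Capitals mark CpG, the dinucleotide that is dense in CpG island promoters.
Slc2a1 promoter: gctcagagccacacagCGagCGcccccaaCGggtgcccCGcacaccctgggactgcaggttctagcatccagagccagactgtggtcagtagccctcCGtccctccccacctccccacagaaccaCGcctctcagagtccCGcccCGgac
Slc2a2 promoter: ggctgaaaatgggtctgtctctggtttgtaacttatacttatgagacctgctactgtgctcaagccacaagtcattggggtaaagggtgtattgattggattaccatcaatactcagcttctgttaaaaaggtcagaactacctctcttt
The Slc2a1 stretch holds 8 CpG and the Slc2a2 stretch holds 0. Their GC shares are 68% and 41.3%.

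The next lines give the 101 bp centred on 5 of the 7 summits, read from GRCm38.p6 on the strand of the gene, with CpG in capitals. They are shown so that the summits within 1 kb of a start can be set beside the intronic summit of Slc2a1, far from any start of that gene. The Hk1 and Hk2 summits also lie in introns, 797 and 467 bp from the nearest start of their gene. The Hk1 stretch is named by the internal start near it and does not contain that start.
Slc2a3, upstream peak, chr6:122801944-122802044, − strand: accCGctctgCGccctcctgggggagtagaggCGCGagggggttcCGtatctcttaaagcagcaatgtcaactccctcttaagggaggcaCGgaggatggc
Slc2a4, chr11:69948868-69948968, − strand: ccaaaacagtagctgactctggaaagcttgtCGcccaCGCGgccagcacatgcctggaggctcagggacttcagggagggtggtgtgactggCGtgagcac
Hk2, chr6:82773780-82773880, − strand: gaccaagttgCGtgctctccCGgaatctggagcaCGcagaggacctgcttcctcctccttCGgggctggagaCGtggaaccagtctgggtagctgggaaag
Hk1, internal start, chr10:62339695-62339795, − strand: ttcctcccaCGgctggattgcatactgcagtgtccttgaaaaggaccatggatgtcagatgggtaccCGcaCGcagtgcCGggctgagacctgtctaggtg
Slc2a1, intronic peak, chr4:119127344-119127444, + strand: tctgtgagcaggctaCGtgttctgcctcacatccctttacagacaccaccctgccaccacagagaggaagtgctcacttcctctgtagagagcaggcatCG
The windows of Slc2a3, Hk2, Slc2a4 and Hk1 hold 6, 5, 4 and 4 CpG. The intronic window of Slc2a1 holds 2.

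Slc2a1 (ENSMUSG00000028645.11, chr4:119108711-119137983) encodes GLUT1, the transporter of basal glucose uptake, and carried the strongest of the 7 peaks. That peak, chr4:119108625-119109579, covered all 5 annotated start sites of the gene, and its summit lay in the 5′ untranslated exon, 3 bp from a start. The fold enrichment at the summit, the ratio of fragments to local background with 1 added to each, was 7.30, at percentile 99.3 of all Mof+/+ peaks. It rested on 32 fragments (95% exact Poisson interval 21.9 to 45.2, counting error only) over a background of 3.52. The other peak of the gene, chr4:119126938-119127560, had a fold enrichment of 3.73 from 16 fragments (9.15 to 26.0). Its summit lay in an intron, in 0 of 5 transcripts an exon, and the nearest start site of any gene was that of the microRNA gene Mir1957a, 2385 bp away. The intronic peak held 0.963 CpG per 100 bp and the peak at the start held 9.11.

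Slc2a3 (ENSMUSG00000003153.10, chr6:122727809-122801640) encodes GLUT3, a transporter of high affinity that is best known from neurons. It had peaks at 2 of its 4 clusters of start sites. The upstream peak, chr6:122801567-122802182, covered the most 5′ start, with its summit 354 bp before it. Its fold enrichment was 3.82 from 19 fragments (11.4 to 29.7). The internal peak, chr6:122742265-122742773, had its summit 59320 bp from the most 5′ start, in an intron, and covered 3 start sites. Its fold enrichment was 3.62 from 16 fragments, so the fragment intervals of both peaks overlap. The start at the upstream peak belongs to 1 protein-coding transcript, and the cluster at the internal peak to 5 transcripts, of which 3 are protein-coding. The 2 other clusters, with 5 and 10 CpG in the 1001 bp around their starts, had no peak within 3 kb.

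Slc2a4 (ENSMUSG00000018566.14, chr11:69942539-69948188) encodes GLUT4, the insulin-responsive transporter of fat and muscle. Its 1 peak, chr11:69948312-69949223, ended 124 bp upstream of the most 5′ start site, and the summit lay 730 bp upstream. The peak overlapped no annotated gene and covered 0 of the 8 start sites. Its fold enrichment was 3.32 from 14 fragments (7.65 to 23.5), at percentile 45.7 of all Mof+/+ peaks. The peak was 912 bp wide, at percentile 69.3 of width, so it was broader than most peaks of the list while its enrichment lay just under the median of 3.40.

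No gene was found to share the promoter of Slc2a4 in the annotation. No start site of another gene, on either strand, lay within 1 kb of its 8 start sites. The nearest start on the other strand was that of the processed pseudogene Gm12310, 2610 bp away, and the nearest on the same strand was that of Elp5, 21215 bp away. Of the 9 genes, 2 did share a promoter with a non-coding gene on the other strand. The start of Slc2a5 lay 20 bp from that of the lincRNA gene Gm13093, and no peak of either list lay within 3 kb of it. The internal Hk1 start at 62340542 lay 65 bp from that of the antisense gene Hk1os.

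The study's ChIP-qPCR primers for the Slc2a4 promoter each matched the genome at 1 place and are shown because the stretch between them covers much of the peak. They are listed as a forward and a reverse primer of the same assay, although the stretch is long for qPCR, and what they amplified was not tested. The outcome of that assay is not part of the peak lists and is not given here, so the overlap says nothing about whether qPCR found MOF at this promoter.
Forward primer, chr11:69948064-69948078, + strand: agaccccggcgttcg
Reverse primer, chr11:69949095-69949115, − strand: atccactaaggttcctcgctc
Together they span 1052 bp, from 927 bp upstream to 124 bp downstream of the most 5′ start. The span holds 804 of the 912 bp of the peak (88.2%), its summit and 7 of the 8 start sites.

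**Figure D2:**
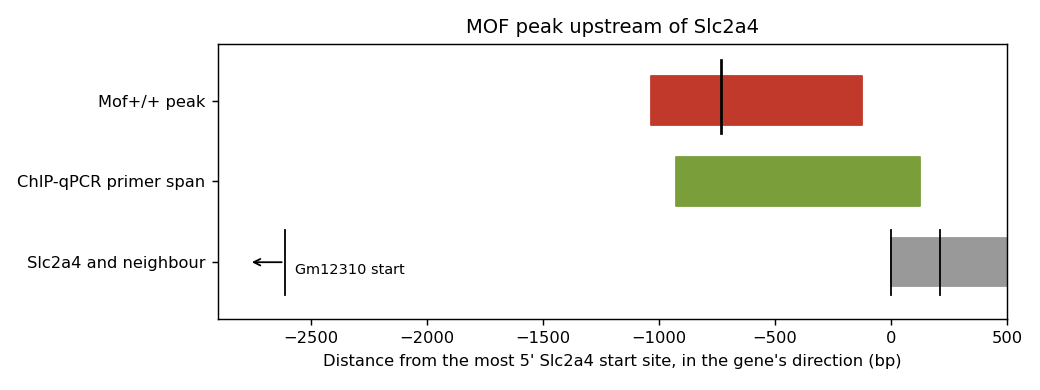
The x axis gives the distance in bp from the most 5′ Slc2a4 start site, in the direction of the gene, with the peak in red (black line, summit), the span of the primers in green and the gene body in grey. The peak runs from 1035 to 124 bp upstream of the start, and the start of Gm12310, which points away from Slc2a4, lies 2610 bp upstream.

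The other transporters had no peak in either list. Slc2a2 (ENSMUSG00000027690.13, chr3:28697903-28731359) encodes GLUT2 of liver and pancreatic beta cells, and its nearest Mof+/+ peak lay 74.2 kb from the gene body. Slc2a5 (ENSMUSG00000028976.10, chr4:150119283-150144169) encodes GLUT5, a fructose transporter, and its nearest peak was 26.4 kb away. Slc2a8 (ENSMUSG00000026791.14, chr2:32972990-32982083) encodes GLUT8, which resides on internal membranes. Its nearest peak lay 5.48 kb past the end of the gene and 14.5 kb from its nearest start, with a fold enrichment of 5.09. Slc2a8 stands apart among the genes without a peak by its CpG number, 62 in the 1001 bp around the start, against 9 at Slc2a2, 21 at Hk3 and 33 at Slc2a5.

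Hk1 (ENSMUSG00000037012.18, chr10:62268855-62379908) encodes the hexokinase found in most tissues. Its 12 start sites fall into 9 clusters over the 111 kb of the gene, and only 1 of them, the single start at 62340542, had a peak within 1 kb. The peak, chr10:62339505-62340055, began 487 bp downstream of that start, and the nearest start of any gene was that of Hk1os, 511 bp from the summit. Its fold enrichment was 4.04 from 21 fragments (13.0 to 32.1), the second highest of the 7. The most 5′ start of Hk1 lay 39797 bp from the peak, with 6 CpG around it against 51 at the internal start. A cluster of 3 transcripts lay 2644 bp from the peak, and the 7 other clusters, the most 5′ one included, lay from 11738 to 49176 bp away.

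Hk2 (ENSMUSG00000000628.10, chr6:82725025-82774454) encodes the hexokinase of insulin-sensitive tissues such as muscle and fat. Its peak, chr6:82773650-82774409, had its summit in an intron. Its edge lay 45 bp from the most 5′ start, and its summit 467 bp from an internal start. The fold enrichment of 2.59 was the lowest of the 7, at percentile 8.15 of all Mof+/+ peaks. The peak held 16 fragments, as many as the intronic peak of Slc2a1 and the internal peak of Slc2a3, but the background at Hk2 was 5.57, the highest of the 7. Hk3 (ENSMUSG00000025877.14, chr13:55005985-55021385), the hexokinase of myeloid cells, had no peak, and the nearest lay 78.1 kb from its body.

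In strength the 7 peaks ran from percentile 8.15 to 99.3 of the list, whose highest fold enrichment was 23.0, and 5 of them lay above its median of 3.40 (interquartile range 2.90 to 4.17). The order from high to low was Slc2a1 at its start, Hk1, Slc2a3 upstream, Slc2a1 in its intron, Slc2a3 internal, Slc2a4 and Hk2. With the background held fixed, the counting interval of the fold enrichment was 5.06 to 10.2 at the Slc2a1 start and 1.55 to 4.11 at Hk2, so this pair was separated. The intervals of all other pairs among the 7 overlapped, neighbours in the order included. The −log10 q at the summits ran from 15.6 at the Slc2a1 start to 2.58 at Slc2a4 and 1.63 at Hk2, and the authors' threshold was q of 0.1.

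**Figure D3:**
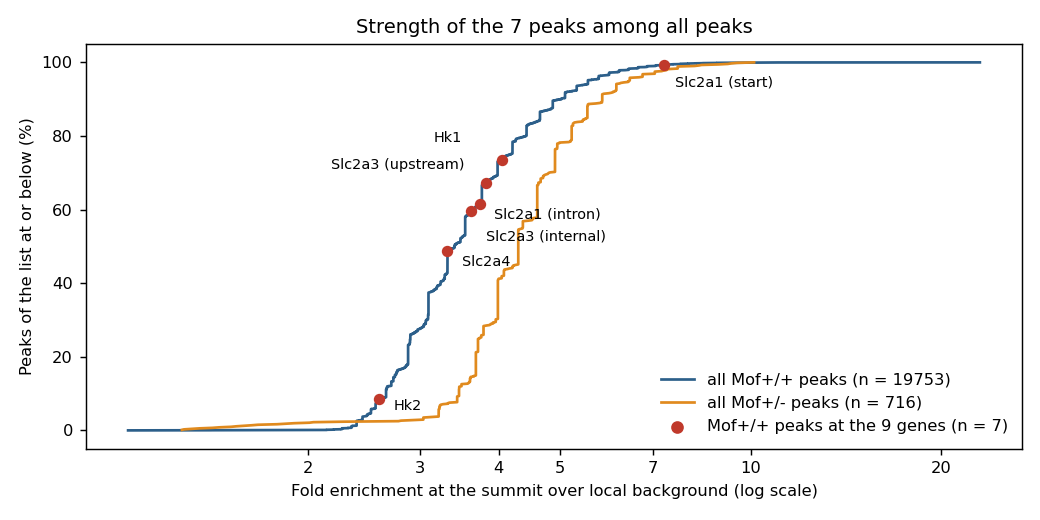
The x axis gives the fold enrichment at the summit on a log scale and the y axis the percent of peaks in a list at or below that value, for all 19753 Mof+/+ peaks (blue) and 716 Mof+/- peaks (orange) on the assembled chromosomes. The red points are the 7 peaks at the 9 genes, from Hk2 at 2.59 to the start of Slc2a1 at 7.30.

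To ask whether MOF binding at these genes changed with 1 copy of Mof, the same genes were read in the Mof+/- list. None of the 7 Mof+/+ peaks shared a base with a Mof+/- peak, beside 2.44% of all Mof+/+ peaks that did. Among all genes with a Mof+/+ peak, 4.06% also had a Mof+/- peak, so 0 of the 5 genes is what most such genes showed. The nearest Mof+/- peak to a start site was 0.295 Mb away at Hk2 and 0.318 Mb away at Slc2a4. For the 7 other genes it lay from 0.805 Mb (Hk3) to 5.97 Mb (Hk1) away.

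The lists also differed in background. Background never fell below 3.52 fragments for Mof+/+ and 2.26 for Mof+/-, which differ 1.56-fold. The lowest −log10 p of any peak was 3.25 for Mof+/+ and 4.72 for Mof+/-. Of the 7 peaks, 6 passed the weakest Mof+/- p-value, all but Hk2, beside 68.6% of all Mof+/+ peaks. After fragments and background were divided by 1.56, 3 of the 7 still passed, beside 30.1% of all. These were Slc2a1 at its start with a scaled −log10 p of 13.2, Hk1 with 5.72 and Slc2a3 upstream with 5.23. The scaled value was 4.56 at the Slc2a1 intron, 4.40 at the internal Slc2a3 start, 3.24 at Slc2a4 and 2.92 at Hk2. These 4 lie under the weakest Mof+/- value, so at Slc2a4 and Hk2, which had no other peak, genotype and this difference in background cannot be told apart. The scaling took in background alone, and at Slc2a1, Slc2a3 and Hk1 the cause of the missing Mof+/- peaks was not tested either. The lists give no value at a place without a peak, and coverage tracks were not used here, so no level or fold between genotypes is given for any of the 9 genes.

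Start sites with a peak were mostly richer in CpG than those without. Around the most 5′ start, protein-coding genes were split into 5 equal groups by CpG number, and a Mof+/+ peak was present at 7.77% of the lowest group and 76% of the highest. Slc2a1 is in the highest group, and Slc2a3, Slc2a8 and Hk2 are in the next, where 67.5% of genes had a peak. Slc2a4 and Slc2a5 are in the middle group (46.1%), Hk3 in the one below (25.3%), and Slc2a2 and Hk1 in the lowest. The start sites of the 9 genes formed 25 clusters with gaps of at most 500 bp. The 7 clusters with a peak within 1 kb held from 23 to 80 CpG, with a median of 59. The 18 without held from 5 to 62, with a median of 17.5. The ranges overlap through Slc2a8 on one side and the internal start of Slc2a3 on the other. The clusters are not independent. The 1 peak of Hk2 counts at 2 clusters, with 69 and 59 CpG, and 9 of the 25 clusters belong to Hk1. CviKI-1, the enzyme that cut the chromatin before sonication, cuts after G in the 4-base sites AGCC and AGCT and in GGCC and GGCT, so its sites also follow base composition. They numbered from 18 to 33 around the clusters with a peak and from 13 to 31 around those without. Of the 7 peaks, 6 held more CpG per 100 bp than the list median of 2.45, and 6 held more CviKI-1 sites per kb than the list median of 21.2. The part of either in the peak calls was not tested.

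**Figure D4:**
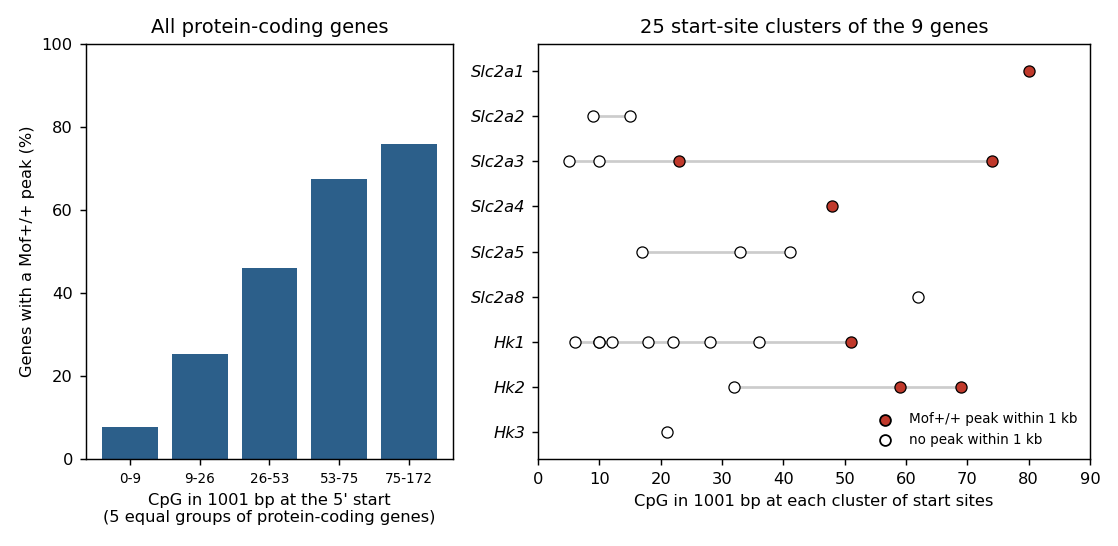
The left panel gives the percent of all protein-coding genes with a Mof+/+ peak in 5 equal groups by the number of CpG in 1001 bp around the most 5′ start, rising from 7.77% to 76%. The right panel gives the CpG number at each of the 25 start-site clusters of the 9 genes, filled where a peak lay within 1 kb, and the filled points lie at 23 or above.

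Promoter motifs were searched in the 300 bp windows of the RefSeq table, from 250 bp before to 50 bp after a start, on both strands. The table held 8 windows for 7 of the 9 genes. Slc2a3 and Slc2a4 had no entry. The windows held 18 CpG at Slc2a1 and 25 at Hk2, both of which overlapped a peak, against a median of 7 over 32851 windows. At Hk1 the window of the most 5′ start held 1 CpG and that of the internal start held 20. Slc2a5 and Slc2a8, without peaks, held 15 and 14. The GC box GGGCGG, a binding motif of Sp1-type factors found in 35.7% of all windows, occurred 2 times at Slc2a1, 3 times at Hk2 and 3 times at Slc2a5. CCAAT (37.4% of windows) occurred 5 times at Slc2a8, 2 times each at Hk2 and Slc2a2 and 1 time at Slc2a1. Slc2a1 alone of the 8 windows held TATAAA (13.6%) and ATGGCGG (4.05%), 1 time each. CACGTG (7.15%), CCGGAAG (8.86%) and TAAAAATA (2.72%), the core motifs of E-box, ETS and MEF2 factors, occurred in 0 of the 8. In the 301 bp around the 7 summits, GGGCGG was present at the Slc2a1 start and at the summits of Slc2a4, Hk1 and Hk2, beside 28.3% of all Mof+/+ peaks. CCAAT was present at the Slc2a1 start and the internal Slc2a3 start (25.7% of all), ATGGCGG at the Slc2a1 start and upstream of Slc2a3 (4.7%), and TATAAA at the Slc2a1 start (9.31%). CACGTG (6.1%), CCGGAAG (6.49%) and TAAAAATA (2.38%) were at 0 of the 7.

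The other genes of glucose transport and use were described by the same rule, each share beside the 44.5% of all protein-coding genes. The remaining Slc2 transporters had a Mof+/+ peak at 2 of 6 genes, Slc2a6 with 3.59 and Slc2a9, a urate transporter, with a fold enrichment of 3.76. Adpgk, which encodes an ADP-dependent kinase of glucose, had a peak with 3.92, and Hkdc1, a hexokinase domain gene, had none. Of 6 sodium-coupled Slc5 transporters, Slc5a10 had 2 peaks, the stronger at 4.65, with summits 45869 and 35784 bp from its nearest start. The weaker peak also overlapped Fam83g.

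Glycolysis after hexokinase had a peak at 13 of 19 genes (68.4%), all 13 within 1 kb of a start. The highest value, 8.18, belonged to a peak of 8346 bp assigned to Eno3, the muscle enolase. That peak overlapped Gm12319, Pfn1 and Rnf167 and not Eno3 itself, with its summit 2764 bp from the Eno3 start. Genes whose products sort or dock GLUT4 vesicles had a peak at 10 of 12 (83.3%), with the highest value at the start of Lnpep, 7.30. Lnpep encodes the aminopeptidase that travels with GLUT4. The genes without were Tbc1d4, which encodes an insulin-regulated brake on GLUT4 vesicles, and Sort1. Regulators of transporter genes or of uptake had a peak at 9 of 11 (81.8%), with Txnip and Mef2d both at 6.86, and Arrdc4 and Klf15 without. In this list Pparg, with 2.65, and Ppargc1a, with 3.29, had 1 peak each, and neither had one within 1 kb of a start.

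Of the 54 genes in these 5 lists, 1 had a Mof+/- peak (1.85%), a share near the 1.89% of all protein-coding genes. Txnip, which encodes a protein that lowers glucose uptake by drawing GLUT proteins off the membrane, had 2 such peaks, chr3:96558055-96558314 and chr3:96560208-96560638. Each had a fold enrichment of 3.99 from 12 fragments over a background of 2.26. Both lay inside a Mof+/+ peak of 7012 bp, chr3:96556526-96563537, whose fold enrichment was 6.86 from 30 fragments over 3.52. The antisense gene Gm15441 overlaps the same peaks, which the lists cannot assign to one of both.

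**Figure D5:**
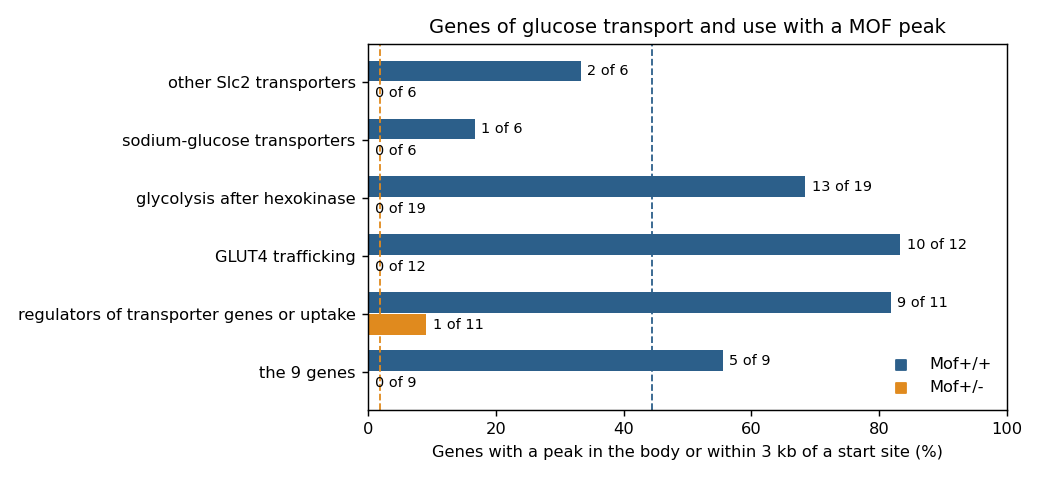
The x axis gives the percent of genes in each list with a Mof+/+ peak (blue) or a Mof+/- peak (orange) in the body or within 3 kb of a start, with counts beside the bars. The dashed lines are the shares of all protein-coding genes, 44.5% and 1.89%, and the 9 genes stand at 55.6% and 0.

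Peaks at genes typical of cell types in the tissue give the setting for these values. Of 8 adipocyte genes, 7 had a Mof+/+ peak (all but Lep), as had 5 of 5 B cell and 5 of 5 T cell genes, beside 44.5% of all protein-coding genes. For macrophages, endothelial and mesothelial cells it was 1 of 5 each, and 2 of 5 for fibroblasts and progenitors. Hepatocyte and neuron genes, from tissues not sampled, had 1 of 5 each. In the Mof+/- list 0 of 8 adipocyte genes had a peak, beside 1.89% of all protein-coding genes, a share at which 0 of 8 is no result about adipocytes. A peak was present at 1 of 5 each among B cell (Pax5, highest fold enrichment 4.66), progenitor (Pdgfra, 5.53) and mesothelial genes (Wt1, 5.52), and 0 in the other marker lists. Which cells of the tissue carried the peaks at the 9 genes was not tested, and a peak in more cells cannot be told apart from more MOF per cell.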

How the data were processed

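The 9 genes, the lists of other genes and the motifs were chosen with earlier results of these data known. They were fixed by name, and, for the lists of other glucose genes, the gene with the highest fold enrichment and every gene with a Mof+/- peak were to be named. Slc2a6, Pparg, the marker genes, Ppargc1a and the genes without a peak that are named were added after their values were seen.

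Per the study's methods and the labels, WAT chromatin was cut with CviKI-1, sonicated and immunoprecipitated, reads were mapped to GRCm38, and peaks were called with MACS2 (2.1.1.20160309.3 in the submitters' processing notes, which also name bedtools) against input at q of 0.1. Whether replicates were pooled is not given in the sources used here. The design text counts 3 Mof+/- animals, while the labels, like the study's reporting summary, give 2 per genotype. The deposited fold enrichment is a ratio of fragments to background at the summit, with 1 added to both. For that summit the authors' caller also wrote a −log10 p-value and, adjusted over the genome, a −log10 q-value, and the summit offset was used as a coordinate. The authors' score column was not used.

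The lists held 19773 and 731 peaks, of which 19753 and 716 lay on chromosomes 1 to 19, X and Y and were used. Fragments and background at each summit were solved as a whole number and a Poisson mean from the deposited fold and p-value. The largest error in −log10 p was 1.29e-05 for the 7 peaks at the 9 genes. Over the lists, 19749 and 712 peaks were solved to within 0.001. The solving and the assignment of peaks were tested on simulated data. Percentiles of fold enrichment are mid-ranks. Genes came from GENCODE M21 and sequence from GRCm38.p6, the build of the lists. Scripts ran in Python 3.11.15 with pandas 2.3.3, scipy 1.17.1 and pysam 0.24.0. With 1 list per genotype there were no replicate values, and peaks and genes are not replicates of a condition. The alternatives concerned the window, the part of the gene, the start sites, the p- or q-value and the merging of peaks. H3 libraries and coverage tracks are not analysed here, and 1 gene of the lists is not reported here.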

Additional observations from a re-analysis of the deposited data

How the results depend on the processing

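Under 10 alternatives of region and threshold, 0 of the 9 genes had a Mof+/- peak in each, and the number with a Mof+/+ peak stayed between 3 and 5. It was 3 (Slc2a1, Slc2a3 and Hk1) with the limit on q set to 0.001, where Slc2a4 and Hk2 were no longer counted, because their peaks have weaker q-values. It was 4 with the limit set to 0.01 and at the weakest Mof+/- p-value, without Hk2, and 4 for gene bodies alone, without Slc2a4. The 10 kb window added 1 peak, 8664 bp upstream of Slc2a3 (fold enrichment 5.31).

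The share of all protein-coding genes with a Mof+/+ peak was 43.7% with a 1 kb window, 48.3% with 10 kb, 42.8% at start sites alone, 41.4% in gene bodies alone, 40.6% and 34.2% at q-values of at most 0.01 and 0.001, and 38.9% at the weakest Mof+/- p-value. The Mof+/- share was 2.38% with 10 kb, 1.68% at start sites, 1.5% in gene bodies, and 1.54% and 1.03% at these q-values. The summit of the Slc2a4 peak lay 730 bp from the start, against 124 bp for its edge.

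No paired analysis was possible because the peak lists, the values analysed here, carry no replicate numbers or values per library, and for the same reason leaving out a replicate was not run. At the lowest background of each list, a summit needed at least 11 fragments to reach its weakest p-value, in both lists.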
